A study of Mus musculus with 15 samples.

Results

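Complement genes were followed in liver RNA of mice in which a Cre virus was given to delete Gata4, a zinc finger transcription factor. The set held 34 genes of complement components and regulators, listed by symbol and found as rows of the authors' deposited table of genotype results, which lists 24965 genes. Each symbol stood on 1 row, and 34 of 34 had an adjusted p, as did 13335 genes of the whole table. Male C57BL/6J mice, 9 weeks old at collection, all carried floxed Gata4 alleles (Gata4fl/fl). At 8 weeks of age they had received an AAV8 vector. In the Gata4LKO group (called knockout here) it carried Cre under the hepatocyte-directed Tbg promoter (AAV8-Tbg-Cre), and in the control group it was empty. Livers were taken 7 days later, either after a fast of 12 h (4 control, 4 knockout) or after a fast of 12 h and 12 h of refeeding with a diet of 69% sucrose and 10% fat (4 control, 3 knockout). Control animals received no Cre, so the presence of Cre and the loss of Gata4 cannot be told apart, and which exons of Gata4 are floxed is not stated in the labels. Titles within each group have 1 number in common, of unstated meaning and different in each group, so anything it marks cannot be told apart from genotype.

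Complement is a cascade of plasma proteins, most of them made by hepatocytes, that tags and lyses microbes. It is started by antibody-bound C1 (classical pathway), by sugar-binding lectins with their MASP proteases (lectin pathway), or by slow turnover of C3 (alternative pathway). The routes meet at cleavage of C3, which leads to C5 cleavage and a pore of C5b, C6, C7, C8 and C9. Soluble and membrane-bound regulators keep the cascade off host cells, and the fragments C3a and C5a act on leukocytes through their own receptors.

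The deposited table holds 1 comparison and no values per liver, so the spread of single livers could not be shown. Its values were matched, as described with the processing, to knockout minus control in fasted livers, within a model of all 15 libraries. A contrast of refed with fasted control livers matched equally well numerically and was not taken, because the table is named for genotype. Library size factors lay between 0.912 and 1.11. Albumin (Alb) had the highest mean of all genes per the authors' deposited table, at 1107247 normalized counts. Gata4 itself was not lower in the knockout label: its log2 change per the authors' deposited table was 0.31 ± 0.15 (SE), adjusted p = 0.361. Statements on direction name livers by label for that reason. The p-values set a change against its SE, as estimated from these 15 libraries. A gene is called when the adjusted p of the authors' DESeq2 Wald test (Benjamini-Hochberg) was under 0.05. Of 9 genes chosen for their response to feeding, 0 were called, beside 292 of 13335 tested genes. In that test 1 of the 9 had an unadjusted p under 0.05, beside 1518 of 13335.

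In livers labelled knockout, 4 abundant complement genes fell: Masp1 of the lectin pathway, C8b of the lytic pore, C4b of the classical and lectin convertase, and the C4 inhibitor C4bp. The falls were to 0.67 to 0.79 of the control level. Cfd (factor D) rose from a very low level, and 29 of 34 genes did not pass the test. C3, the central component, was not among the called genes. Thus 5 of 34 complement genes were called (14.7%), against 2.19% of the 13335 genes tested. The list was drawn up with earlier results of these data known, and among 19 tested complement genes outside it 0 were called. Called lower were 4 of 34 (11.8%), against 1.60% of all tested genes, and called higher 1, against 0.585%. Abundant genes are measured with smaller errors. Among genes with a mean of at least 1000 normalized counts, 4 of 22 complement genes were called lower, against 2.68% of 2384 genes in all, and 0 higher, against 1.13% (in either direction, 4 of 22 against 3.82%). At an unadjusted p under 0.05 stood 12 of 34 (35.3%), against 11.4% of all tested genes. The 34 genes had a median of -0.06 on the log2 scale, beside 0.01 over the whole tested table, and 21 of 34 estimates were negative, beside 6412 of 13335.

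**Figure D1:**
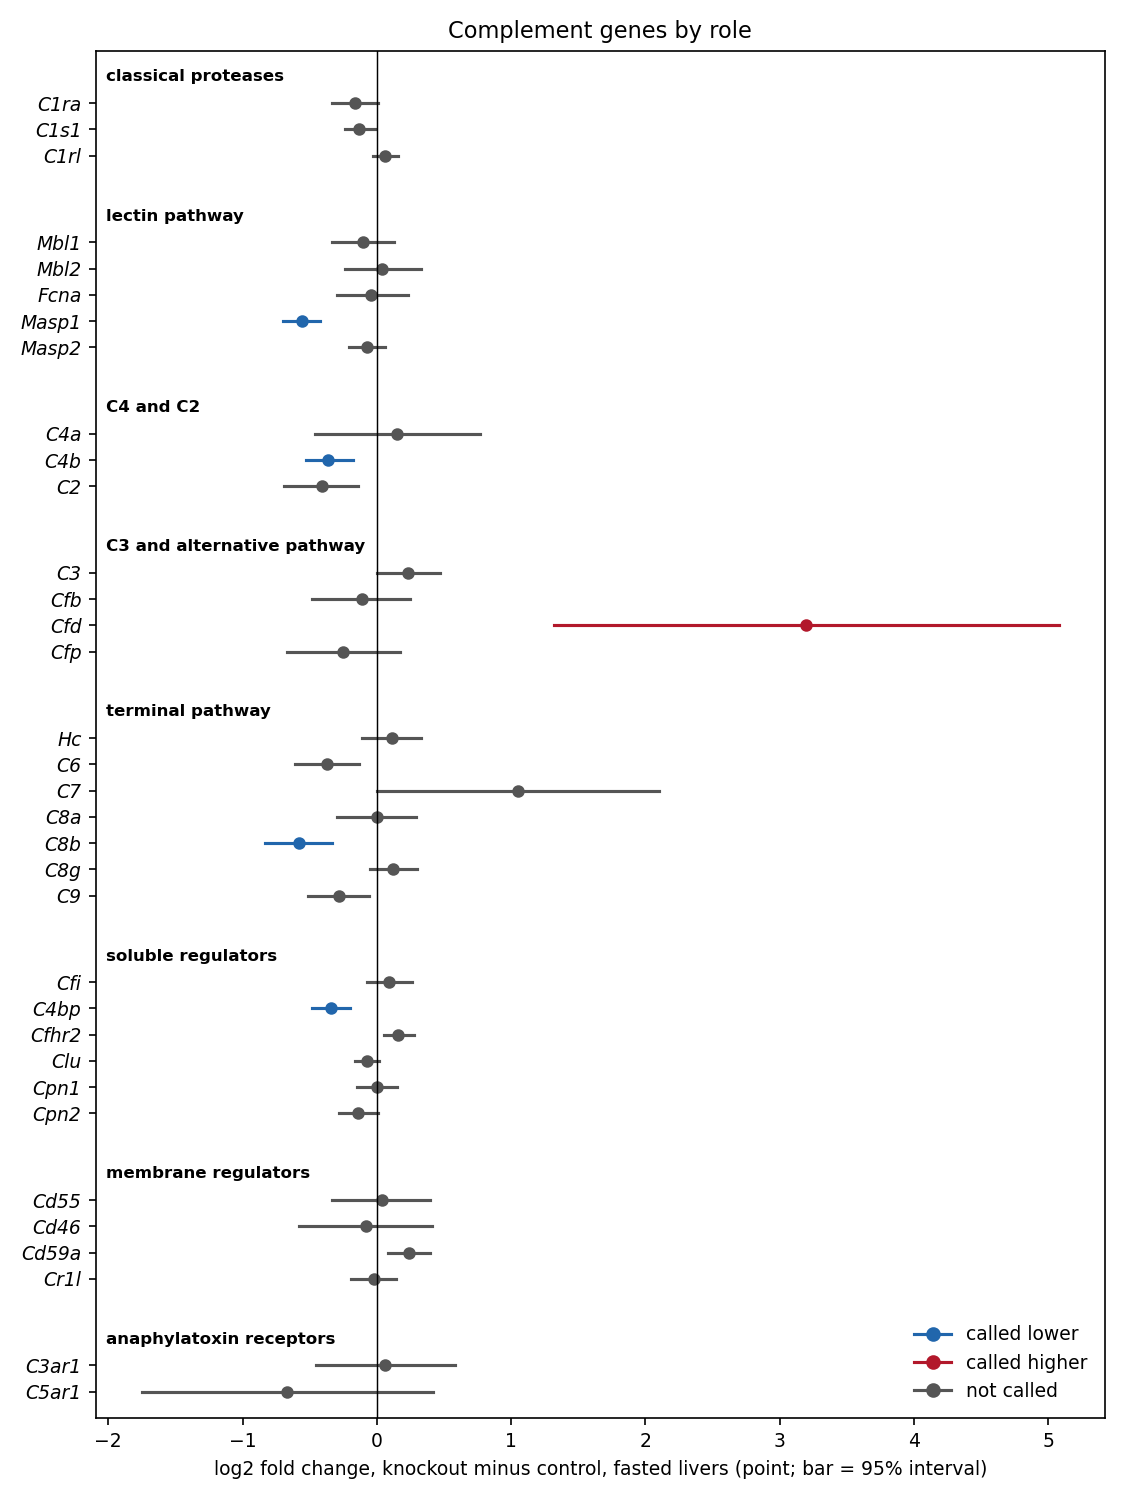
Log2 fold change (horizontal axis, knockout minus control in fasted livers) of 34 complement genes ordered by role; points are estimates of the authors' deposited table and bars 95% intervals (estimate ± 1.96 SE). The called genes Masp1, C4b, C8b and C4bp lie left of 0 and Cfd lies far to the right with a wide interval, while the intervals of C2, C6, C9 and C1s1 also lie left of 0 and those of C7, Cfhr2 and Cd59a right of it, though none of these 7 was called.

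Levels differed widely between members. Together they made up 1.71% of all normalized counts, and C3 alone made up 47.2% of that sum and ranked 10th among all genes of the authors' deposited table. Of the 34 genes, 22 had a mean of at least 1000 normalized counts, 6 lay between 100 and 1000, and 6 lay below. On a scale of normalized counts per kilobase of annotated exon, C3 was highest at 28248, followed by Clu at 5400, Cfi at 4272, C9 at 4010 and Hc at 3600. The lowest per-kilobase levels were those of C3ar1 (6.76), Cd46 (4.55), C7 (4.46) and C5ar1 (3.54). Soluble regulators all stood at 1138 per kilobase or more, while membrane regulators and anaphylatoxin receptors lay at 410 or less. Among genes of plasma components, Masp1 (379), Fcna (184), C4a (171), C2 (65.6), Cfp (63.2), Cfb (25.7), Cfd (10.2) and C7 also lay below 410 on that scale. C7 was the exception in the lytic pathway: the other 6 genes of that role lay between 1356 and 4010 per kilobase. The deposited means carry no error over livers, so the order of close neighbours cannot be told from the spread. The length used counts each annotated exon base of a gene once, over all its isoforms, which gives 9833 bases for Masp1. It also includes stretches shared with other genes. Such stretches hold 73.0% of the transcript 50-mers of Cfb, 38.7% of those of C2 and 30.6% of those of C4a. If reads there were not counted for these genes, their per-kilobase levels are too low, to an unknown extent.

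**Figure D2:**
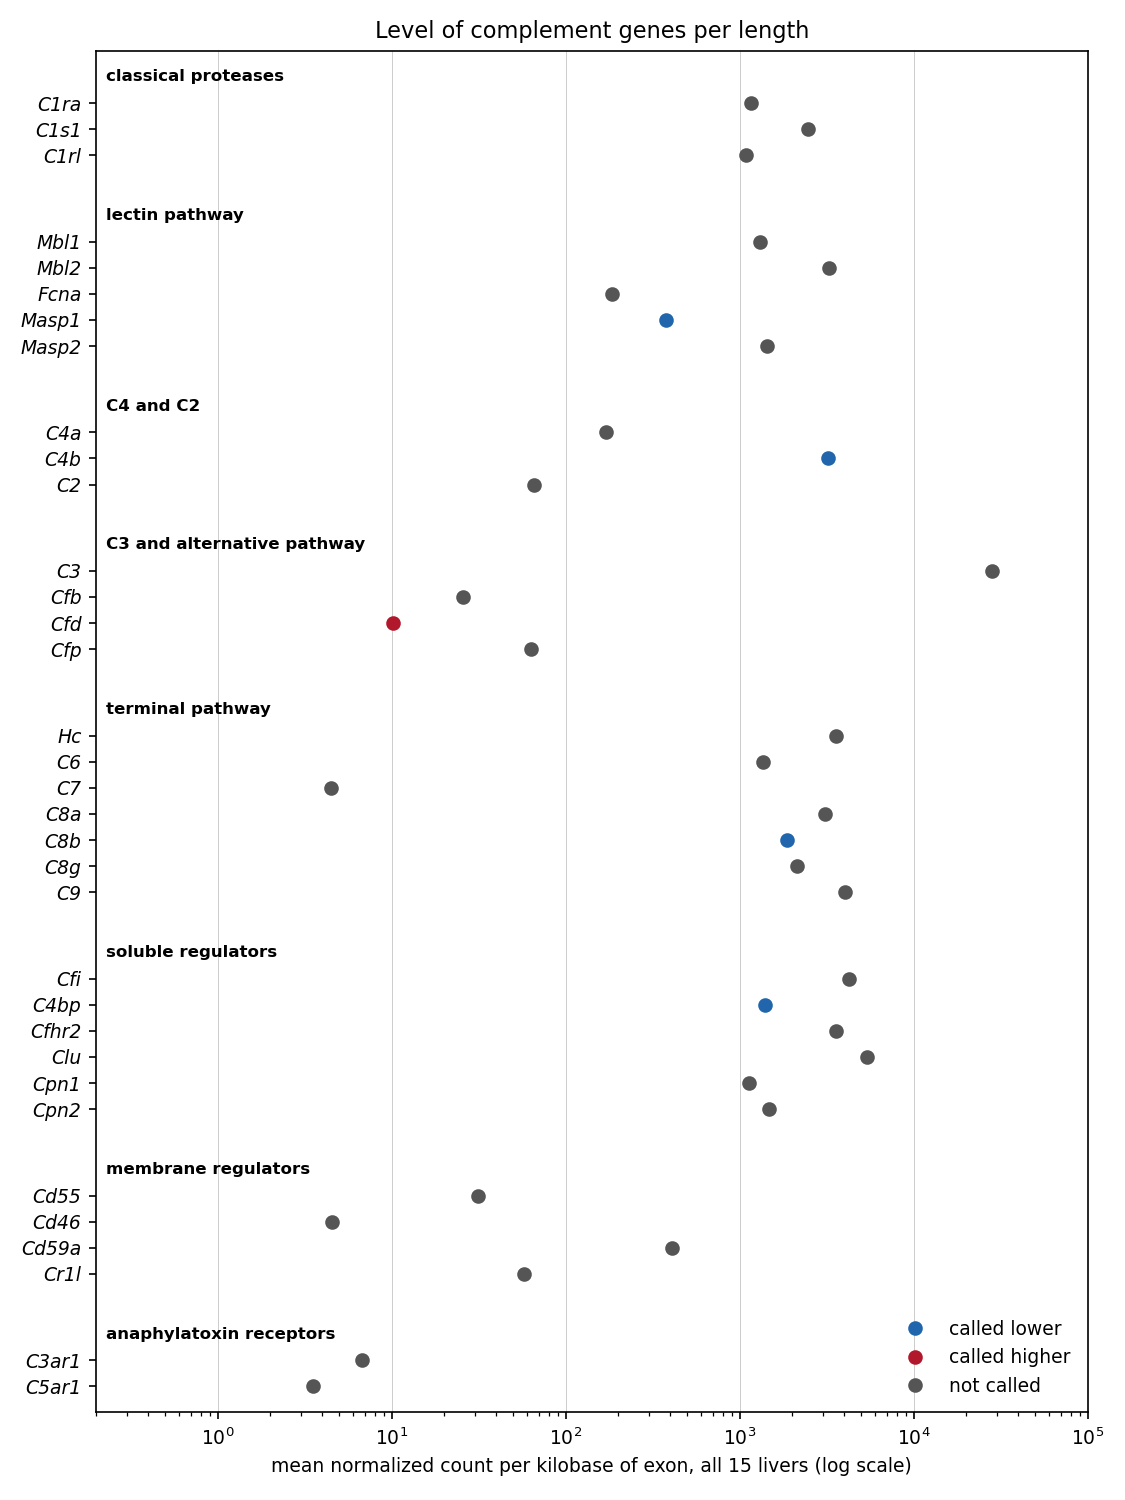
Mean normalized count per kilobase of annotated exon over all 15 livers (horizontal log axis) for the 34 complement genes by role; each point is 1 gene, and the means have no error bars because the table gives none. C3 stands at 28248 and the receptors and C7 under 10.

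The lectin pathway held the change with the smallest p. Masp1 encodes MASP-1 and, by alternative splicing, MASP-3 and a short inhibitory form. The gene (ENSMUSG00000022887, chromosome 16, 23449417 to 23520815, minus strand, mm10) reached a mean of 3722 normalized counts, with a log2 change of -0.56 ± 0.07 (SE) per the authors' deposited table, p = 5.80e-15 and an adjusted p of 8.59e-12. That is a ratio of 0.68, with a 95% interval of 0.62 to 0.75. Its splice forms are not told apart by a count per gene. Masp2, the protease that cleaves C4 and C2, was the most abundant gene of this role by mean count, at 4771, with a log2 change of -0.07 ± 0.07 (SE), p = 0.295 and adjusted p = 0.801 per the authors' deposited table, and with an interval of its ratio from 0.86 to 1.05. The recognition lectins also gave no call. The deposited table of the authors put Mbl1 and Mbl2, the mannose-binding lectins, at -0.10 ± 0.12 and 0.04 ± 0.14 (SE), and Fcna (ficolin A), which macrophages make, at -0.04 ± 0.14 (SE). Of the 5 lectin pathway genes, 1 fell and 4 did not pass, with a median of -0.07. The nearest tested neighbours of Masp1 on the chromosome were not called, and untested genes between were passed over. St6gal1, 89067 bases away on the side of lower coordinates, stood at 0.05 ± 0.13 (SE) per the authors' deposited table. Bcl6, 444237 bases away on the other side, stood at 0.62 ± 0.82 (SE) there.

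In the classical pathway the proteases of the C1 complex were not called. C1s1, whose product cleaves C4, was the most abundant of them, with a mean of 7701 and a log2 change of -0.13 ± 0.06 (SE) per the authors' deposited table (p = 0.0279, adjusted p = 0.334). C1ra, which activates C1s, stood at -0.16 ± 0.09, and the C1r-like protease C1rl at 0.06 ± 0.05 (SE), per the authors' deposited table. Intervals of all 3 lay within a 1.5-fold change either way. C1ra shares 48.0% of its transcript 50-mers with C1rb, and C1s1 shares 21.8% with C1s2. Those copies had means of only 1.65 and 0.795 normalized counts per the authors' deposited table.

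C4b, one of the 2 mouse C4 genes, was called lower, and C2 had a change of like size that was not called. C4b encodes complement C4, which with C2 forms the C3 convertase of the classical and lectin pathways. The gene (ENSMUSG00000073418, chromosome 17, 34728380 to 34743882, minus strand) had a mean of 18379 and a log2 change of -0.36 ± 0.09 (SE) per the authors' deposited table, p = 5.05e-05 and adjusted p = 0.00517, a ratio of 0.78 (95% interval 0.69 to 0.88). C4a, the relative that encodes sex-limited protein and is listed with a noncoding biotype in that table, had a mean of 1062 and a log2 change of 0.15 ± 0.31 (SE) per the authors' deposited table. C4a shares 30.6% of its transcript 50-mers with C4b, and C4b shares 34.6% of its own with C4a. A read that lies wholly in such a stretch cannot be assigned to 1 gene, so both values are uncertain to that extent. C2 was measured at a mean of 253.9 with a log2 change of -0.41 ± 0.14 (SE) per the authors' deposited table, p = 0.00334 and adjusted p = 0.102. C2 and Cfb overlap a readthrough gene model, Gm20547, that holds 38.7% of the transcript 50-mers of C2 and 73.0% of those of Cfb. How the read counter treated reads in that overlap is not given in the sources used here.

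No fall was called for C3 or in the alternative pathway. C3 had a mean of 145279 and a log2 change of 0.23 ± 0.12 (SE) per the authors' deposited table, p = 0.0539 and adjusted p = 0.453, and its log2 interval ran from 0.00 to 0.47, which is up to a ratio of 1.38. Factor B (Cfb), which forms the C3 convertase of this pathway, stood at -0.11 ± 0.19 (SE) with a mean of 72.6 per the authors' deposited table. Properdin (Cfp), which stabilizes that convertase and comes mainly from leukocytes, had a log2 change of -0.25 ± 0.21 (SE) per the authors' deposited table. Cfd encodes factor D (adipsin), the protease that cleaves factor B and is made mainly by fat cells. It (ENSMUSG00000061780, chromosome 10, 79890853 to 79892655, plus strand) was called higher, at 3.20 ± 0.96 (SE) on the log2 scale with p = 8.58e-04 and an adjusted p of 0.0421 per the authors' deposited table. The ratio was 9.20 with a 95% interval from 2.50 to 33.9, and its mean of 9.36 stands close to the lowest tested mean of 8.20 per the authors' deposited table. That mean corresponds to 140 normalized counts over all 15 livers, and how they were spread over the livers is not known. With the adjustment taken over every gene that has a p, its adjusted p was 0.0784 and it was no longer called.

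Fat cell markers were read beside Cfd. Adipoq, Plin1, Retn and Lep, which define adipocytes, had means of 2.43, 0.588, 0.341 and 0.131 normalized counts per the authors' deposited table, too low for an adjusted p. Adipoq had a log2 change of 3.04 (p = 0.311), Plin1 of 2.66 (p = 0.469), Retn of 1.96 (p = 0.637) and Lep of 1.40 (p = 0.740) per the authors' deposited table. All 4 estimates were positive, with p-values of 0.311 or more. Fabp4, which endothelial cells and macrophages also express, was not called, at 0.67 ± 0.29 (SE) per the authors' deposited table. Car3, which hepatocytes express strongly, was called lower there, at -0.62 ± 0.17 (SE). Of 9 markers in the list, 5 were tested, 1 was called higher (Cfd itself) and 1 lower (Car3). The part of fat tissue in the Cfd result was not tested. In bulk tissue, a change in the number of cells of a type and a change in RNA per cell cannot be told apart.

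Among the genes of the lytic pathway, C8b fell and the other 6 did not pass the test. C8 is assembled from alpha, beta and gamma chains, encoded by C8a, C8b and C8g. C8b (ENSMUSG00000029656, chromosome 4, 104766317 to 104804548, plus strand) had a mean of 4765 and a log2 change of -0.58 ± 0.13 (SE) per the authors' deposited table, p = 5.51e-06 and adjusted p = 8.48e-04, a ratio of 0.67 (95% interval 0.56 to 0.80). C8a (ENSMUSG00000035031, chromosome 4, 104815679 to 104876398, minus strand) stood at 0.00 ± 0.15 (SE) with a mean of 11298 per the authors' deposited table, an interval of its ratio from 0.81 to 1.22. C8g (ENSMUSG00000015083, chromosome 2, 25498651 to 25501719, minus strand) had a log2 change of 0.12 ± 0.09 (SE) per the authors' deposited table. C8a and C8b end facing each other, with 11131 bases between their annotated ends. The interval of the C8b ratio ended at 0.80 and that of C8a began at 0.81. The difference between the genes was not tested, since the table gives no covariance between them.

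Promoters of the 3 C8 genes are shown to set C8b, which fell, beside its partners C8a and C8g, which were not called. That of C4bp, which also fell, is shown without a partner. The 250 bases before the start site are from RefSeq on GRCm38.p6 (the same sequence as mm10), in the direction of the gene: chr4:104766067-104766316 (plus strand) for C8b, chr4:104876399-104876648 (minus) for C8a, chr2:25501720-25501969 (minus) for C8g and chr1:130661619-130661868 (minus) for C4bp. Capitals mark matches to AGATAA, its variant AGATAG, also TGATAA, and lastly TGATAG, which are spellings that GATA factors are known to bind, searched on both strands with overlaps allowed.
C8b: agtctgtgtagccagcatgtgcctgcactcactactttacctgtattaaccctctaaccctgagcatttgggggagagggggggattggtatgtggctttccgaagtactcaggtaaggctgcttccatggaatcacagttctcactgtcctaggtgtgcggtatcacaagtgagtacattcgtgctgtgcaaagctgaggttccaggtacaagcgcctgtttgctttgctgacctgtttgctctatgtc
C8a: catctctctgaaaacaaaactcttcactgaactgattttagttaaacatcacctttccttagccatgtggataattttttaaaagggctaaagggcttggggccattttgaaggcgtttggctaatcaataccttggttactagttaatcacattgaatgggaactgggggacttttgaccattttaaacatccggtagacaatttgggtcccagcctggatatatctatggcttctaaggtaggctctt
C8g: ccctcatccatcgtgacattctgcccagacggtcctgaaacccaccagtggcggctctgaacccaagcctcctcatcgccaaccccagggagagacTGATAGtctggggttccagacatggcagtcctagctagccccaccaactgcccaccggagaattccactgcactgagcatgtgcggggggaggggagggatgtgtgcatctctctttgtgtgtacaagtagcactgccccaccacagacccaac
C4bp: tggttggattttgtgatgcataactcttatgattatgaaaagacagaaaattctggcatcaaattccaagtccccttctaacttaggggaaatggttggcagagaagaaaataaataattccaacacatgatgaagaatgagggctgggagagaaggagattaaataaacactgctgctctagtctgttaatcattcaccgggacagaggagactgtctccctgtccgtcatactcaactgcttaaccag

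Of these 4 windows, C8g alone held a match, starting at position -154 from the start site. C8g has a second window in the table, at chr2:25500507-25500756 (minus strand), not shown, which held none. Windows were found for 27 of 34 complement genes (29 windows, since C1s1 and C8g have 2 each), and 9 of 29 (31.0%) held a match. Among all 32851 promoter windows of the same length the share was 26.5%, and among those of tested genes 17.9%. Windows of genes called lower held one in 22.4% and of genes called higher in 27.2%. C6, C7, Hc, Mbl2, C1rl, Cfhr2, Cd46 and C3ar1 were the other complement genes with a match. A match describes these letters only. Masp1, C4a, C4b, C2, Cfb, Cfi and Clu had no window in the table.

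The remaining pore genes gave no call. C6, which binds C5b first, had a mean of 4821 and a log2 change of -0.37 ± 0.12 (SE) per the authors' deposited table, p = 0.00252 and adjusted p = 0.0842, the nearest to the threshold of all uncalled members. C9, which polymerizes into the pore, stood at -0.28 ± 0.12 (SE) with a mean of 10249 per the authors' deposited table (p = 0.0147, adjusted p = 0.243). Hc, which encodes C5, was the most abundant gene of the role by mean count, at 22556, with a log2 change of 0.11 ± 0.11 (SE) per the authors' deposited table (p = 0.332, adjusted p = 0.823). C7 had a mean of only 11.9 and a log2 change of 1.05 ± 0.54 (SE) per the authors' deposited table, p = 0.0491 and adjusted p = 0.437, with a log2 interval from 0.00 to 2.10. C6, C7 and C9 lie on chromosome 15, and their estimates did not share a sign. Over the 7 genes the median was 0.00, with 1 called lower and 0 called higher.

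Among soluble regulators, C4bp fell and 5 others did not pass. C4bp encodes C4b-binding protein, the plasma inhibitor that takes apart the classical and lectin C3 convertase and helps factor I cleave C4b. The gene (ENSMUSG00000026405, chromosome 1, 130634773 to 130661632, minus strand) had a mean of 9388 and a log2 change of -0.34 ± 0.07 (SE) per the authors' deposited table, p = 1.33e-06 and adjusted p = 2.96e-04, a ratio of 0.79 (95% interval 0.72 to 0.87). Its nearest tested neighbours, Pfkfb2 and the complement regulator Cd55, stood at -0.09 ± 0.17 and 0.04 ± 0.19 (SE) per the authors' deposited table. Factor I (Cfi), the protease that inactivates C3b and C4b, had a log2 change of 0.09 ± 0.09 (SE) per the authors' deposited table. Cfhr2 had a mean of 6912 and stood at 0.16 ± 0.06 (SE), p = 0.00649 and adjusted p = 0.152, per the authors' deposited table. It shares 29.2% of its transcript 50-mers with other genes and is uncertain to that extent. Clusterin (Clu), which binds assembling pore complexes, was the most abundant of the role with a mean of 18560 and stood at -0.07 ± 0.05 (SE) per the authors' deposited table (p = 0.111, adjusted p = 0.586). Both chains of carboxypeptidase N, which inactivates C3a and C5a, were uncalled, with Cpn1 at 0.00 ± 0.08 and Cpn2 at -0.14 ± 0.08 (SE) per the authors' deposited table. All 6 genes of this role, C4bp included, had intervals within a 1.5-fold change either way.

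Membrane regulators and receptors gave no call by the authors' DESeq2 test, with 1 of 6 at an unadjusted p under 0.05. That gene was Cd59a, the surface inhibitor of pore assembly, with a mean of 742.5 and a log2 change of 0.24 ± 0.08 (SE) per the authors' deposited table (p = 0.00369, adjusted p = 0.109). Cr1l, the rodent convertase inhibitor Crry, stood at -0.02 ± 0.08 (SE), decay accelerating factor Cd55 at 0.04 ± 0.19 and Cd46, a cofactor of factor I, at -0.08 ± 0.25 (SE) per the authors' deposited table. Intervals of these 4 genes lay within 1.5-fold either way. The receptor of C3a, C3ar1, had a mean of 29.1 and a log2 change of 0.06 ± 0.26 (SE) per the authors' deposited table (p = 0.807, adjusted p = 0.974). C5ar1, the receptor of C5a, had a mean of 9.10 and a log2 change of -0.67 ± 0.55 (SE) per the authors' deposited table, an interval of the ratio from 0.30 to 1.33 that leaves room for a large fall.

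Intervals differed in width between members. Of the 34 complement genes, 25 had 95% intervals within a 1.5-fold change either way, beside 8776 of 13335 tested genes. Beyond that band reached the intervals of Masp1, C8b, C2, C6 and Cfp on the lower side, Cfd, C7 and C4a on the higher side, and C5ar1 on the lower side with the widest reach below 0 of all 34 genes. At the errors of C7 and C5ar1, both of low count and uncalled, a change of 1.5-fold could not have been told from none. For C3, Hc, C8a, Cfi, Clu, Masp2 and both carboxypeptidase chains, a change of that size lay outside the interval.

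**Figure D3:**
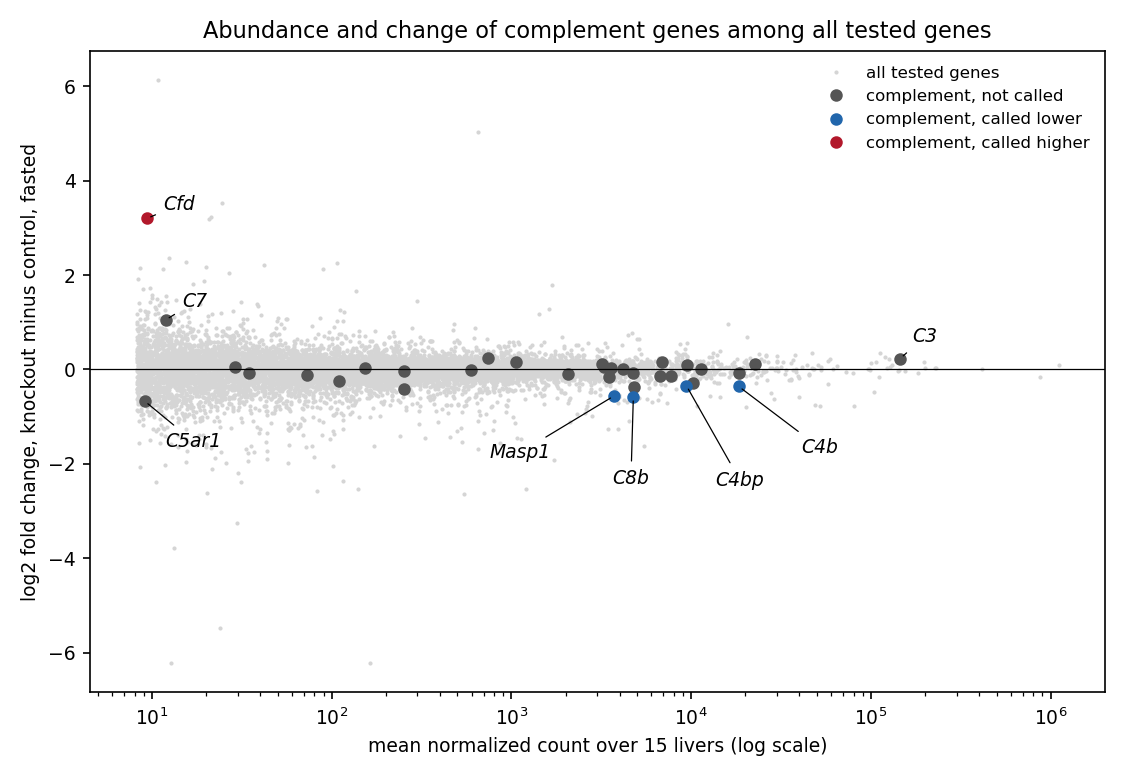
Mean normalized count over 15 livers (horizontal log axis) against log2 fold change (vertical axis, knockout minus control, fasted) for all 13335 tested genes (grey) and the 34 complement genes (large points). The 4 genes called lower have means between 3722 and 18379, Cfd stands at 9.36, and C3 is the most abundant member at 145279.

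Other genes of the complement system, outside the 34, were read from a list of 27. Of these, 19 were tested and 0 were called by the authors' DESeq2 test. At an unadjusted p under 0.05 stood 4, all 4 lower, beside 828 of 13335 tested genes that were lower at that p. Of the 19 estimates 14 were negative (median -0.11), beside 6412 of 13335. C1qa, C1qb, C1qc and Vsig4 also stand in the list of macrophage markers, so the signs of the 2 lists are not separate observations. Vitronectin (Vtn), which blocks pore insertion, was the most abundant and stood at -0.01 ± 0.04 (SE) with a mean of 29255 per the authors' deposited table. Cd59b and Susd4 were among the 4 with an unadjusted p under 0.05. C1 inhibitor (Serping1), which acts on C1r, C1s and the MASPs, stood at -0.06 ± 0.06 (SE) per the authors' deposited table. The chains of C1q, made by macrophages, had log2 changes of -0.08 ± 0.14 for C1qa, -0.04 ± 0.13 for C1qb and -0.11 ± 0.14 (SE) for C1qc per the authors' deposited table.

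Genes of factors and receptors known to control complement transcription gave 0 calls among 20 tested by the authors' DESeq2 test, with 5 at an unadjusted p under 0.05, all 5 higher, beside 690 of 13335 tested genes that were higher at that p. These were the interleukin-6 receptor chains Il6ra and Il6st, the interleukin-1 receptor chains Il1r1 and Il1rap, and Socs3, which interleukin-6 signalling induces. Their log2 changes were 0.47 ± 0.18, 0.14 ± 0.06, 0.51 ± 0.23, 0.17 ± 0.08 and 0.51 ± 0.25 (SE) in that order per the authors' deposited table, with adjusted p from 0.210 to 0.424. The hepatocyte factors Hnf4a and Cebpa, the most abundant of the list, stood at 0.10 ± 0.07 and -0.23 ± 0.12 (SE) per the authors' deposited table. Over the 20 genes the median was 0.00.

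Macrophage markers are given here because Fcna, Cfp, C3ar1 and C5ar1 are expressed in such cells. Of 15 Kupffer cell and macrophage markers, 14 had negative estimates with a median of -0.27 (6412 of 13335 tested genes were negative), 0 were called by the authors' DESeq2 test and 2 (Clec4f and Folr2) had an unadjusted p under 0.05. Clec4f, which defines Kupffer cells, stood at -0.27 ± 0.13 (SE) per the authors' deposited table, and the summed mean of the list was 4597 normalized counts. The part of macrophage number in the values of the 4 genes was not tested. Neutrophil and lymphocyte lists had 1 tested gene each, neither called. Sinusoidal endothelial and stellate cell markers, 10 tested each, had medians of 0.23 and 0.14 and 0 calls by that test, with 4 and 0 at an unadjusted p under 0.05. Among 9 hepatocyte markers 1 was called, Apoa1, at -0.48 ± 0.11 (SE) per the authors' deposited table, and the median was 0.09.

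**Figure D4:**
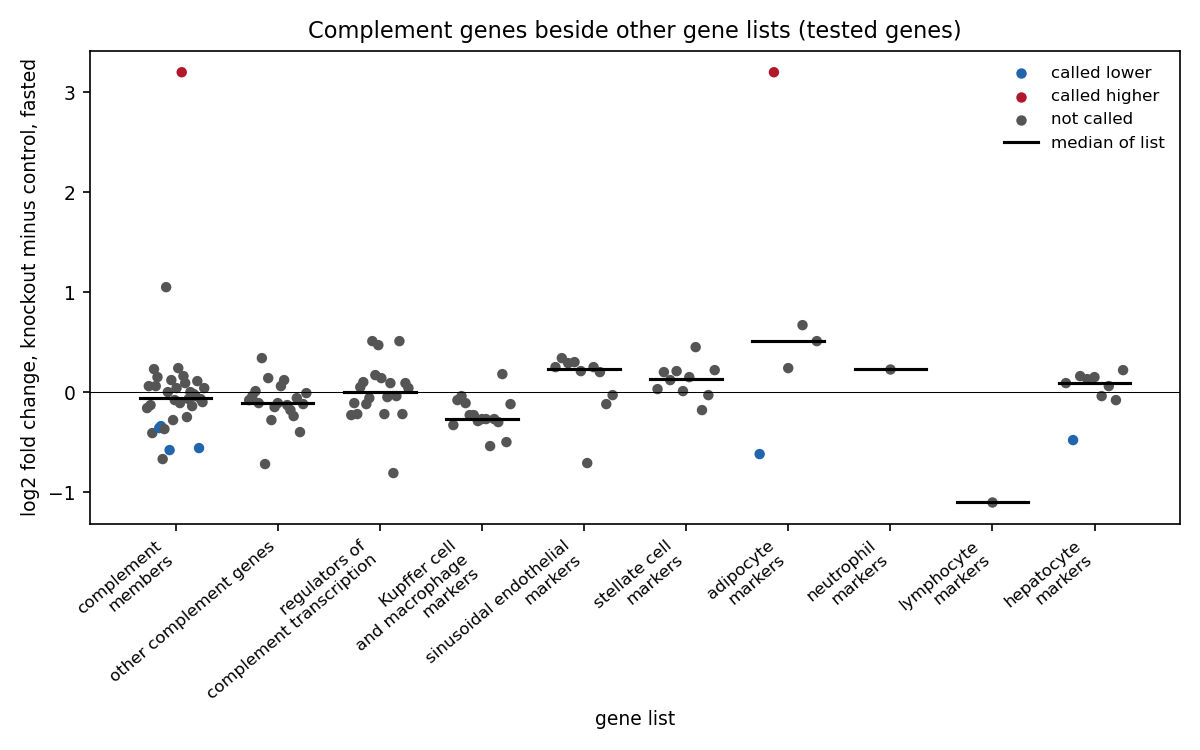
Log2 fold change (vertical axis, knockout minus control, fasted) of the tested genes of each list; each point is 1 gene, coloured by call, and black bars are list medians. The complement members centre on -0.06, the macrophage markers on -0.27 and the hepatocyte markers on 0.09.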

How the data were processed

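Per the labels' protocols, TRIzol and RNeasy columns were used to isolate RNA from frozen liver, and libraries were made with the KAPA Stranded kit. Alignment was by STAR 2.6.0c to mm10, after FastQC, and testing by DESeq2, per the submitters' processing notes. How reads were counted (tool, strand, gene models) is not given in the sources used here. Per the file headers, the deposited mean is an averaged expression signal (counts divided by size factors, over all libraries), followed by the authors' log2 fold change and its SE on the log2 scale. The authors' deposited Wald score is that change over its SE, and the deposited p-values are of that test, with adjusted p equal to a Benjamini-Hochberg adjustment over 13335 genes.

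The contrast was identified from genes with 1 read in 1 of 15 libraries. Of 28 readings fitted to their deposited estimates and errors with a ridge-penalized negative binomial model (Python 3.11.15), 2 matched within 2e-06, and the closest other differed by 4.37e-05: knockout minus control in fasted livers, and refed minus fasted in control livers. Both have fasted controls as the reference, which fixes the sign.

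From the table, 95% intervals, ratios and counts of calls were computed, and the adjustment code was tested on simulated data. Exon lengths, coordinates, overlaps and shared 50-mers came from GENCODE vM21 (mm10), which held 99.9% of the gene IDs, and promoters from RefSeq. All 34 members were named; full values were given for called members, those with an unadjusted p under 0.05 and the most abundant of each role. Members and lists were chosen with earlier results of these data known. The planned count model could not be run without values per liver, so the planned reading of the deposited test was used. The table gives no depth per library. Values of some genes in the list of other complement genes are not reported here.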

Additional observations from a re-analysis of the deposited data

How the results depend on the processing

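All settings were planned. When p-values were adjusted over all 24940 genes that have one, over those with means of 10 or more, over those with means of 100 or more, or over protein coding genes, 4, 4, 4 and 5 complement genes were called, against 5. The gene lost was Cfd, at an adjusted p of 0.0784 with every gene and outside both minima by construction. At an adjusted p under 0.1 the count was 6, with C6 added, and under 0.01 it was 4. Calls among all genes under the same 6 settings numbered 223, 297, 251, 270, 434 and 167, against 292; the last is beyond 1.5 times. The members' median was -0.06 for means of at least 100 and -0.07 for means of at least 1000, against -0.06. Another planned setting, every row of a symbol, gave the same set, because each symbol stood on 1 row. Subtracting the median of tested genes (0.007, or 0.012 for means of at least 100) reversed no member. Of 195 alternatives for single members, 194 kept direction and call, but most of this was fixed in advance. Re-adjusting leaves the log2 change as it is, and no new test followed the subtraction of a median. The thresholds of 0.1 and 0.01, and the minima for genes below them, were not among the 195. No paired analysis was possible because the table holds no values per liver and no title number is shared between groups. Left-out livers, other normalizations and other tests were not run either, for want of such values. Low counts limit Cfd, C7, C5ar1, C3ar1 and Cd46.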
